A study of Mus musculus with 11 samples.

Results

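The genes described here are 9 genes of MHC class I antigen presentation, H2-K1, H2-D1, B2m, Tap1, Tap2, Tapbp, Psmb8, Psmb9 and Nlrc5. They were chosen by gene name for their place in the pathway, with earlier results of these data known. All 9 were found among the 32285 genes of the deposited count matrices. Their UMIs (unique molecular identifiers, each counting 1 captured transcript) were summed per library and cell type and compared over 4 groups of mice. The study set WT mice against conventional Lrg1-/- mice, with or without middle cerebral artery occlusion and reperfusion (MCAO/R), a model of ischemic stroke in which a filament blocks the artery and is then withdrawn.

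Each library came from the brain of 1 mouse, and the right brain was the tissue taken. The sham + WT group had 3 libraries (replicates 1, 2 and 3) from mice with intact Lrg1, operated on without the filament entering the internal carotid artery. The sham + Lrg1-/- group had 3 libraries (replicates 1, 2 and 5) with the same operation in mice lacking Lrg1 in every tissue. The MCAO/R + WT group had 2 libraries (replicates 1 and 2) and the MCAO/R + Lrg1-/- group had 3 (replicates 1, 2 and 5). The knockout removes Lrg1 from its first exon to the stop codon, was bought as a C57BL/6N line and was backcrossed to that strain, while the methods give the operated mice as C57BL/6. A difference of substrain or source between genotypes therefore cannot be told apart from the knockout. The labels state neither the reperfusion time nor the age of the sequenced mice. The methods describe the WT mice as younger than the age they give for the Lrg1-/- line, so age also cannot be told apart from genotype.

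MHC class I molecules display peptides from inside the cell to CD8 T cells and are made by nearly all nucleated cells, with low levels in resting neurons and glia. The proteasome cuts proteins into peptides, and in cells exposed to interferon the subunits Psmb8 and Psmb9 replace constitutive ones to form the immunoproteasome. The transporter Tap1-Tap2 carries the peptides into the endoplasmic reticulum, where Tapbp (tapasin) holds the transporter next to the empty heavy chain H2-K1 or H2-D1, bound to the light chain B2m. Nlrc5 is the transactivator of the class I genes, acting through the SXY module of their promoters.

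In GRCm38 coordinates of the GENCODE M21 annotation, 7 of the members lie on chromosome 17, the chromosome of the mouse MHC and of Lrg1 itself. Tapbp spans chr17:33915899-33929292, H2-K1 chr17:33996017-34000347, Psmb9 chr17:34181987-34187764, Tap1 chr17:34187553-34197225, Psmb8 chr17:34197721-34201454, Tap2 chr17:34203527-34216321 and H2-D1 chr17:35262730-35267499. B2m lies at chr2:122147686-122153083 and Nlrc5 at chr8:94434356-94527272. Lrg1 lies at chr17:56119678-56122001, outside the MHC. H2-K1 and H2-D1 are similar paralogs, and whether shared reads affected the UMIs counted for each was not tested. Tap1 and Psmb9 overlap on opposite strands, Tapbp overlaps Zbtb22 on the same strand, and B2m, Psmb8, Tap2 and Nlrc5 overlap antisense transcripts or genes.

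RefSeq promoter windows of GRCm38.p6, which run from 250 bases before the gene start, were matched by symbol for 7 members. Tap2 and Nlrc5 had no entry. The sequences of H2-K1 and B2m are shown because class I heavy chain and light chain genes share the regulatory elements by which interferon and Nlrc5 act on them. Capitals mark matches, on either strand, to an interferon regulatory factor core (AANNGAAA), an NF-kB motif, a TGACG element like that of the SXY module and a CCAAT box. The letters of the first motif were chosen with these sequences in view, and overlapping matches of the NF-kB motif are shown as 1 run. H2-K1 is given at chr17:34000348-34000547 on the minus strand and B2m at chr2:122147487-122147685 on the plus strand.
H2-K1: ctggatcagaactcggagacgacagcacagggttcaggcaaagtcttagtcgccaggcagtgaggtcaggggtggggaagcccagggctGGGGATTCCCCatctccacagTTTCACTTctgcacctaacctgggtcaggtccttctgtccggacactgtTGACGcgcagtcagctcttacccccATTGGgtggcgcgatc
B2m: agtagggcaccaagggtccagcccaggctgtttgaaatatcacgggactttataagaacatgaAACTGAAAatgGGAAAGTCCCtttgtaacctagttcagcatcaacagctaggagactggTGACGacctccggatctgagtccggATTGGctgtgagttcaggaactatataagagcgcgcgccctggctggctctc

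The stretches of H2-K1 and H2-D1 from the NF-kB to the interferon element are identical in 28 of 29 bases, and the difference lies between the elements. They are shown here at chr17:34000430-34000458 (minus strand) for H2-K1 and chr17:35262923-35262951 (plus strand) for H2-D1.
H2-K1: GGGGATTCCCCatctccacagTTTCACTT
H2-D1: GGGGATTCCCCatctcctcagTTTCACTT

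AANNGAAA was found in the windows of B2m, H2-D1 and H2-K1 and in 21.3% of all 32851 windows. The NF-kB motif was found in the same 3 members and in 3.9% of all windows. TGACG was found in 5 members, those 3 with Psmb9 and Tap1, and in 17.8% of all windows, and CCAAT was found in 6 members, with Tapbp as well, and in 33.8%. The starts of Psmb9 and Tap1 are 225 bases apart in RefSeq. A match of letters is a description and not a binding site.

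The libraries were not alike in depth or in transcripts of foreign cell types. The sham + WT libraries held 110423176-115001970 UMIs and the sham + Lrg1-/- libraries 37159497-70976468. The MCAO/R + WT libraries held 135747375-144393940 UMIs and the MCAO/R + Lrg1-/- libraries 51062713-171813031. After filtering, 124491 cells remained, of which 97145 fell into 19 named cell types, and of the 27346 unnamed cells 16198 came from MCAO/R + Lrg1-/- replicate 5. Of 130382 distinct barcodes, 2034 occurred in more than 1 library. Lrg1 had 954 UMIs over the tested types of sham + WT mice and 31458 over those of MCAO/R + WT mice, and 0 in both Lrg1-/- groups. Haemoglobin transcripts, which belong to red blood cells, summed to 18.6-22.4 CPM in microglia of the sham + WT group against 3480-10300 CPM in sham + Lrg1-/- mice. Endothelial cells also held choroid plexus RNA, and 6 choroid plexus transcripts summed to 327-588 CPM and 8220-20400 CPM in these groups. CPM here is UMIs scaled to a TMM-adjusted total of 1000000 per library and cell type.

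Over the 13 cell types compared in the sham + WT group, every member was lowest in oligodendrocytes, and all but Tap2 had their highest mean in T cells, monocytes or microglia. Types with too few cells for the comparisons, such as B cells, are left out of this order. H2-K1 averaged 1470 ± 137 CPM (SD, n = 3) in T cells and 1280 ± 42.5 CPM (SD, n = 3) in monocytes and monocyte-derived macrophages. Microglia followed at 863 ± 54.7 CPM (SD, n = 3), endothelial cells at 780 ± 23.3 CPM (SD, n = 3) and border-associated macrophages at 770 ± 41.6 CPM (SD, n = 3). Below these came fibroblasts, pericytes, ciliated ependymal cells, astrocytes, vascular smooth muscle cells and choroid plexus epithelial cells, between 258 and 155 CPM. Neuroblasts and neurons had 103 ± 49.1 CPM (SD, n = 3) and oligodendrocytes 75.5 ± 11.9 CPM (SD, n = 3). T cells and monocytes overlapped over their libraries, as did endothelial cells and border-associated macrophages and every pair of neighbours from fibroblasts down, whereas monocytes, microglia and border-associated macrophages did not overlap with the next in order.

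B2m, the light chain, had its highest mean in monocytes and monocyte-derived macrophages at 1420 ± 136 CPM (SD, n = 3) and its lowest in oligodendrocytes at 57.9 ± 6.82 CPM (SD, n = 3). H2-D1 ran from 1620 ± 112 CPM (SD, n = 3) in monocytes to 63.2 ± 5.69 CPM (SD, n = 3) in oligodendrocytes. The immunoproteasome subunit Psmb8 ran from 304 ± 34.2 CPM (SD, n = 3) in T cells to 4.72 ± 0.519 CPM (SD, n = 3) in oligodendrocytes, and Psmb9 from 114 ± 24.8 CPM to 2.97 ± 1.02 CPM (SD, n = 3 each) in the same types. Of the transporter, Tap1 ran from 64.7 ± 3.75 CPM (SD, n = 3) in monocytes to 0.872 ± 0.23 CPM (SD, n = 3) in oligodendrocytes, while Tap2 was highest in endothelial cells at 76.5 ± 2.16 CPM (SD, n = 3), overlapping T cells. Tapbp and Nlrc5 followed another order. Tapbp was highest in microglia at 255 ± 3.90 CPM (SD, n = 3), with no overlap with monocytes at 145 ± 23 CPM (SD, n = 3). Nlrc5 was highest in T cells at 105 ± 30.6 CPM (SD, n = 3), and vascular smooth muscle cells came next at 41.8 ± 7.48 CPM (SD, n = 3), overlapping monocytes at 32.8 ± 11.2 CPM (SD, n = 3).

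Over the 13 cell types of the sham + WT group, log2 means of H2-K1, H2-D1, B2m, Tap1, Psmb8 and Psmb9 correlated with each other at r between 0.943 and 0.992, while Nlrc5 correlated with the other members at 0.539 to 0.763. The cell types share libraries and free RNA, so these values describe the pattern only. Of 16287 genes compared in the same way, the 5 with the highest mean correlation with the members were H2-M3 (0.9), Mir155hg (0.899), Srgn (0.896), Tapbpl (0.895) and Dtx3l (0.895).

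**Figure D1:**
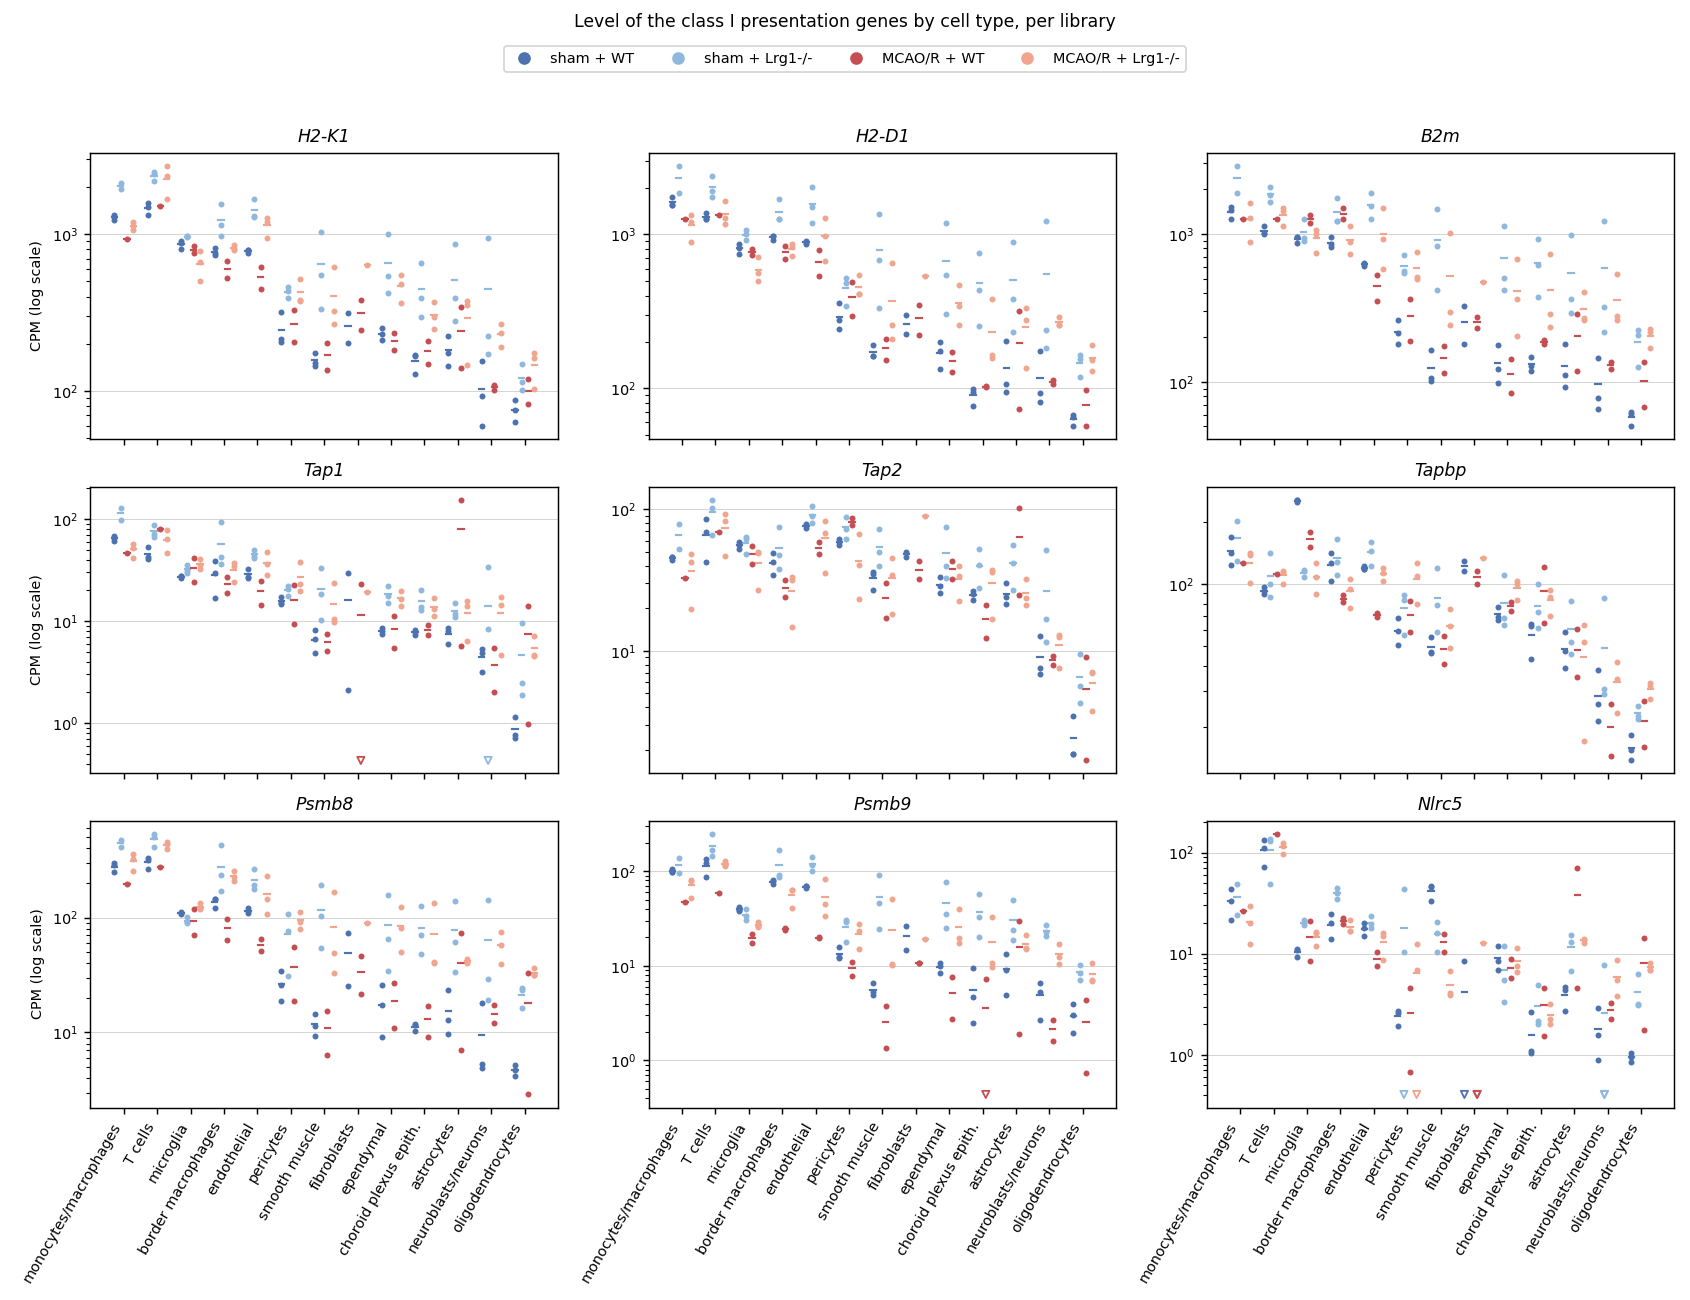
CPM (log axis) of the 9 members in 13 cell types, with 1 point per library, a bar for the group mean and colours for the 4 groups. Open triangles at the bottom are libraries with 0 UMIs. In vascular smooth muscle cells the sham + Lrg1-/- libraries lie above the sham + WT libraries for every member but Nlrc5, while in oligodendrocytes and astrocytes 1 MCAO/R + WT library reaches or exceeds the Lrg1-/- libraries for several members.

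The comparison of the sham + Lrg1-/- group with the sham + WT group asks what the knockout changes without stroke. A member counted as called in a cell type where its edgeR adjusted p was under 0.05 and its natural-log fold change was larger than 0.25 in either direction, with adjustment by Benjamini-Hochberg over all genes tested in the type. Of 108 pairs of member and cell type, 37 were called higher and 2 lower in the Lrg1-/- group, and 101 of 108 log2 fold changes were positive. The median log2 fold change of the pairs was 0.80 and that of all genes 0.00. Over all genes and types, 6.5% of pairs were called higher and 6.01% lower. The count depended on single libraries, with 10 calls without sham + WT replicate 2, 12 without sham + WT replicate 3, 12 without sham + Lrg1-/- replicate 5, 22 without sham + WT replicate 1 and 25 without sham + Lrg1-/- replicate 2.

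In endothelial cells, 6 of 9 members rose, against 14.5% of all genes there. H2-K1 measured 754, 794 and 794 CPM in the sham + WT libraries and 1300, 1290 and 1670 CPM in the sham + Lrg1-/- libraries, with no overlap, for a log2 change of 0.86 ± 0.17 (SE, adjusted p = 0.0034). B2m measured 609, 639 and 627 CPM against 1260, 1540 and 1900 CPM, for a log2 change of 1.32 ± 0.29 (SE, adjusted p = 0.00576). Psmb9 measured 65.9, 70.0 and 70.1 CPM against 101, 116 and 141 CPM, again with every Lrg1-/- library above every WT library (0.80 ± 0.25, adjusted p = 0.0281). H2-D1, Tap1 and Psmb8 were also called higher, by 0.64 to 0.88 on the log2 scale. H2-K1 and B2m were called whichever library was left out, whereas each of the other 4 lost its call without sham + WT replicate 1, without sham + WT replicate 2 and without sham + Lrg1-/- replicate 5. None of the 6 calls held in every alternative run. Transcripts of microglia (Cx3cr1, C1qa, C1qb and P2ry12) summed to 369-426 CPM in these WT cells and to 1070-2500 CPM in the Lrg1-/- cells. Per unit of these transcripts, H2-K1 was 25.9-32.4 times as abundant in endothelial cells as in microglia of sham + WT mice and 6.55-11.5 times in sham + Lrg1-/- mice. This ratio falls wherever the transcripts rise by a larger factor than H2-K1. The part of free RNA in the endothelial rises was not tested.

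Vascular smooth muscle, choroid plexus epithelial and ependymal cells were among the types with larger log2 fold changes of B2m than endothelial cells. The median for B2m over the 12 types tested was 1.56. In vascular smooth muscle cells 6 of 9 members were called higher (12.4% of all genes), and B2m measured 164, 102 and 107 CPM in WT libraries and 416, 826 and 1480 CPM in Lrg1-/- libraries, for a log2 change of 2.87 ± 0.58 (SE, adjusted p = 0.017). Psmb8 there rose by 3.30 ± 0.65 and Psmb9 by 3.26 ± 0.68 on the log2 scale (adjusted p = 0.017 and 0.0176). The summed microglial transcripts in these cells were 359-833 CPM and 1480-4330 CPM. The ratio of B2m to them, relative to microglia, was 2.61-4.12 in sham + WT mice and 2.61-2.91 in sham + Lrg1-/- mice. The part of free RNA in the rises of vascular smooth muscle cells was not tested. The call for B2m was lost without sham + WT replicate 2, sham + WT replicate 3 or sham + Lrg1-/- replicate 5.

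Choroid plexus epithelial cells had 6 of 9 members called higher (10.3% of all genes). H2-D1 rose by 2.42 ± 0.39 (adjusted p = 0.0029), B2m by 2.28 ± 0.40 (adjusted p = 0.00386), Psmb8 by 2.84 ± 0.51 (adjusted p = 0.00427) and H2-K1 by 1.53 ± 0.27 (adjusted p = 0.00398) on the log2 scale. B2m measured 118, 148 and 128 CPM against 376, 615 and 930 CPM, with no overlap, and microglial transcripts 545-650 CPM against 1820-3770 CPM. Its ratio to these transcripts, relative to microglia, was 2.47-3.24 and 1.94-2.13. Ciliated ependymal cells had 5 members called higher (2.14% of all genes), neuroblasts and neurons 4 (3.03%), oligodendrocytes 2 (5.34%), astrocytes 1 (2.09%) and pericytes 1 (1.48%), B2m in both. The calls in neuroblasts and neurons rested on 128, 30 and 21 cells in the sham + Lrg1-/- libraries. In oligodendrocytes B2m measured 60.9, 62.6 and 50 CPM against 127, 207 and 225 CPM, for a log2 change of 1.66 ± 0.25 (adjusted p = 0.00125). In ependymal cells the microglial transcripts were 1760, 598 and 603 CPM in the WT libraries and 1420, 2440 and 3260 CPM in the Lrg1-/- libraries, and in neuroblasts and neurons 1680, 609 and 587 CPM and 1160, 1090 and 3240 CPM, so that the groups overlapped in both types. Their choroid plexus transcripts did not overlap, at 514-5290 CPM against 15800-26200 CPM in ependymal cells and 334-609 CPM against 15200-19300 CPM in neuroblasts and neurons. The microglial transcripts summed to 308-416 CPM in oligodendrocytes of sham + WT mice and 741-1140 CPM in those of sham + Lrg1-/- mice. The part of free RNA in the rises of these types was not tested.

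**Figure D2:**
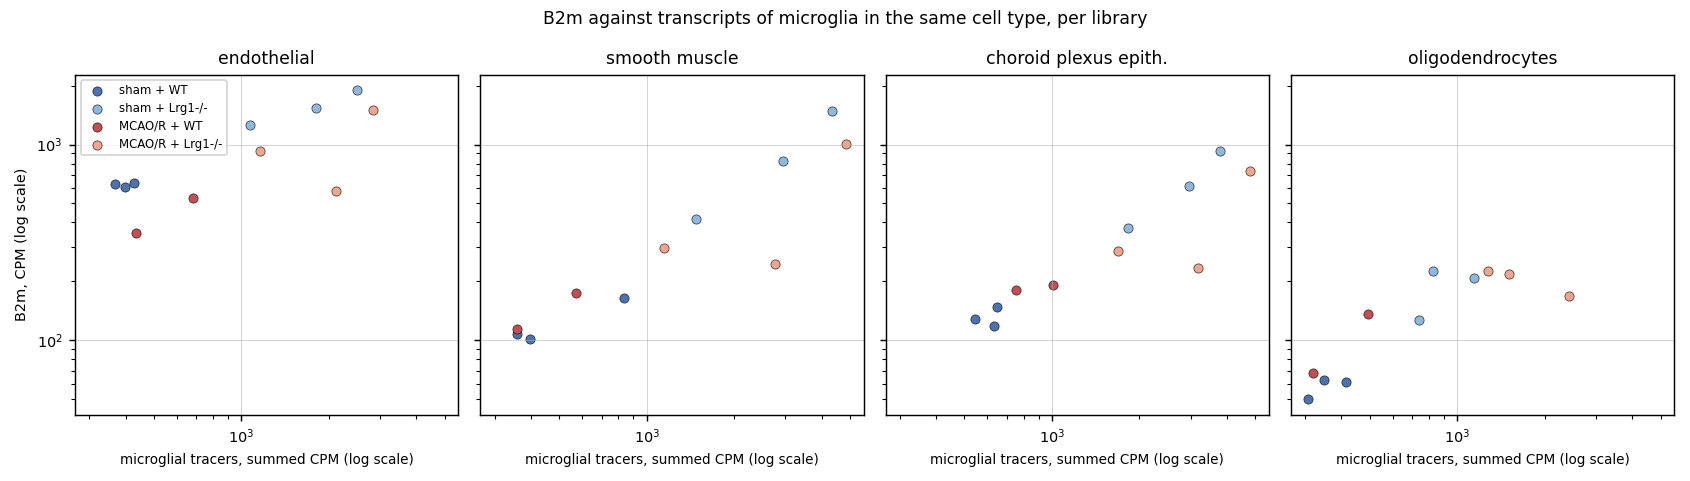
B2m (CPM, log axis) against the summed CPM of 4 microglial transcripts (log axis) in 4 cell types, with 1 point per library. In vascular smooth muscle cells and choroid plexus epithelial cells the Lrg1-/- libraries are higher on both axes, with MCAO/R + Lrg1-/- replicate 5 lowest in B2m among the knockout libraries.

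T cells, which had the highest mean H2-K1 level of the 13 types in the sham + WT group, also showed rises, in 4 of 9 members (7.25% of all genes). H2-K1 measured 1320, 1590 and 1490 CPM against 2490, 2170 and 2410 CPM, with no overlap, for a log2 change of 0.69 ± 0.18 (SE, adjusted p = 0.0277). B2m rose by 0.82 ± 0.16 (adjusted p = 0.00737), Psmb8 by 0.67 ± 0.18 (adjusted p = 0.0261) and H2-D1 by 0.65 ± 0.18 (adjusted p = 0.031). Choroid plexus transcripts in these T cells summed to 337-760 CPM for the sham + WT libraries and 27900-38300 CPM for the sham + Lrg1-/- libraries. The part of free RNA in the rises of T cells was not tested. The call for H2-K1 was lost without each of the sham + WT replicates and without sham + Lrg1-/- replicate 5, at a log2 fold change of at least 0.56 in every alternative.

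Microglia showed the opposite change in 1 member. Tapbp measured 258, 257 and 251 CPM in the sham + WT libraries and 116, 108 and 117 CPM in the sham + Lrg1-/- libraries, so that the groups did not overlap, for a log2 change of -1.17 ± 0.13 (SE, adjusted p = 7e-05). This call held in every alternative run, with a log2 fold change between -1.22 and -1.02. In the other 11 types tested, Tapbp had a positive log2 fold change, between 0.09 and 0.80, and was not called. In microglia, 11.9% of all genes were called lower and 10.4% higher, and the transactivator Nlrc5 was called higher, with 9.29, 11.2 and 10.8 CPM against 19.1, 20 and 21.5 CPM (0.94 ± 0.28, adjusted p = 0.0263). That call was lost when any of the 6 sham libraries was left out. H2-K1 in microglia measured 905, 882 and 801 CPM against 970, 955 and 975 CPM and was not called. The groups filled different microglial subclusters, as 2 subclusters held 6620 and 4199 of the 12119 sham + WT microglia, while another held 1249 of the 2027 sham + Lrg1-/- microglia. In that one Tapbp was 135 CPM over 187 sham + WT cells and 118 CPM over the sham + Lrg1-/- cells, on plain totals, while in the 2 main WT subclusters it was 282 and 204 CPM in WT cells and 134 and 116 CPM in Lrg1-/- cells. Nlrc5 in these 3 subclusters was 5.55, 9.31 and 10.9 CPM in WT cells and 19.7, 23.3 and 20.5 CPM in Lrg1-/- cells. These subcluster values pool cells over libraries and were not tested.

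Nlrc5 in vascular smooth muscle cells was the other member called lower in the Lrg1-/- group. It measured 45.8, 46.4 and 33.2 CPM in the sham + WT libraries and 20.8, 16.2 and 10.5 CPM in the sham + Lrg1-/- libraries, for a log2 change of -1.40 ± 0.29 (SE, adjusted p = 0.017). With each cell thinned to 1000 UMIs, the log2 fold change was -0.06. This type was drawn in part from different clusters in the 2 genotypes, with 77.8% of the WT and 40.8% of the Lrg1-/- cells of sham mice in one cluster. In border-associated macrophages Nlrc5 was called higher, at 24.5, 19.9 and 13.9 CPM against 45.1, 34.9 and 39.5 CPM (1.04 ± 0.26, adjusted p = 0.0446). The Lrg1-/- values rested on 49, 28 and 11 UMIs, and this call did not hold in every alternative run.

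The comparison of the MCAO/R + Lrg1-/- group with the MCAO/R + WT group asks the same question after stroke. Of 99 pairs, 17 were called higher and 1 lower, and 78 log2 fold changes were positive, with a median of 0.57 against 0.03 over all genes. Over all genes and types 8.19% of pairs were called higher and 7.31% lower. Without MCAO/R + WT replicate 2, there were 11 calls, 5 higher and 6 lower, and without sham + Lrg1-/- replicate 5, which enters the shared estimate of the spread, there were 32.

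Endothelial cells again held 6 of the calls (16.6% of all genes higher). H2-K1 measured 616 and 446 CPM in the MCAO/R + WT libraries and 1270, 1200 and 952 CPM in the MCAO/R + Lrg1-/- libraries, with no overlap, for a log2 change of 1.10 ± 0.19 (SE, adjusted p = 0.00203). Psmb9 measured 20 and 19.5 CPM against 82.5, 45.1 and 33.6 CPM (1.44 ± 0.29, adjusted p = 0.00408), and Psmb8 65.0 and 51.0 CPM against 230, 146 and 108 CPM (1.48 ± 0.28, adjusted p = 0.00295). Tapbp measured 69.0 and 72.3 CPM against 120, 113 and 103 CPM (0.66 ± 0.13, adjusted p = 0.00372). All 4 of these calls held in every alternative run. B2m (1.18 ± 0.33, adjusted p = 0.0184) and Tap1 (0.92 ± 0.24, adjusted p = 0.0137) were also called higher. Microglial transcripts in these endothelial cells summed to 434-681 CPM for the MCAO/R + WT libraries and 1160-2840 CPM for the MCAO/R + Lrg1-/- libraries. Their part in the endothelial calls was not tested.

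In oligodendrocytes H2-D1, B2m and Psmb9 were higher (14.9% of all genes), and H2-D1 measured 98.1 and 56.5 CPM against 129, 192 and 152 CPM, with no overlap (1.04 ± 0.22, adjusted p = 0.00298). In pericytes B2m, Psmb8 and Psmb9 were higher by 1.08, 1.37 and 1.17 on the log2 scale (10% of all genes). Microglial transcripts summed to 319-493 CPM in MCAO/R + WT and 1280-2430 CPM in MCAO/R + Lrg1-/- oligodendrocytes, and to 618-1100 CPM and 2790-5700 CPM in pericytes. Their part in these rises was not tested. In border-associated macrophages both immunoproteasome subunits were higher (9.66% of all genes), with Psmb8 at 98.0 and 63.7 CPM against 256, 224 and 208 CPM (1.49 ± 0.31, adjusted p = 0.00372) and Psmb9 at 25.4 and 23.9 CPM against 63.2, 64.1 and 40.8 CPM (1.21 ± 0.28, adjusted p = 0.00797). Neither gene overlapped between the groups there, whereas H2-K1 and H2-D1 were not called in these cells. Single calls were made in choroid plexus epithelial cells (Psmb8, 2.34 ± 0.65, with 12.8% of all genes higher) and in neuroblasts and neurons (Psmb9, 2.62 ± 0.52, with 2.04%). Some of these calls rested on few UMIs. Psmb9 had 5 and 7 UMIs in WT and 8, 16 and 25 in Lrg1-/- neuroblasts and neurons. In pericytes it had 27 and 23 against 8, 15 and 20, and Psmb8 had 26 and 6 in WT choroid plexus epithelial cells. Of the calls in this paragraph, only H2-D1 in oligodendrocytes held in every alternative run. Microglial transcripts were 755-1010 CPM in WT and 1690-4800 CPM in Lrg1-/- choroid plexus epithelial cells, and 746-749 CPM and 2180-4760 CPM in neuroblasts and neurons. Their part in the single calls was not tested. T cells and monocytes could not be tested because 1 MCAO/R + WT library held at least 20 of these cells, and neutrophils, tested here alone, had no call.

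Microglia after stroke again differed in Tapbp, with 152 and 179 CPM in the MCAO/R + WT libraries and 89.3, 126 and 108 CPM in the MCAO/R + Lrg1-/- libraries (-0.61 ± 0.14, adjusted p = 0.00919). The groups did not overlap and the call held in every alternative. The subclusters again differed, as 1 of them held 5398 MCAO/R + WT cells and 223 MCAO/R + Lrg1-/- cells, with 164 and 111 CPM of Tapbp. In 4 others, with at least 100 cells of both groups, Tapbp was 111 and 105, 122 and 108, 124 and 114, and 227 and 205 CPM in WT and Lrg1-/- cells, and in a further one 150 and 116 CPM, with no test. Psmb9 was higher by 0.45 ± 0.15 (adjusted p = 0.044), at 21.8 and 17.6 CPM against 28.9, 26.5 and 25.8 CPM. Unlike that of Tapbp, this call did not hold in every alternative.

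**Figure D3:**
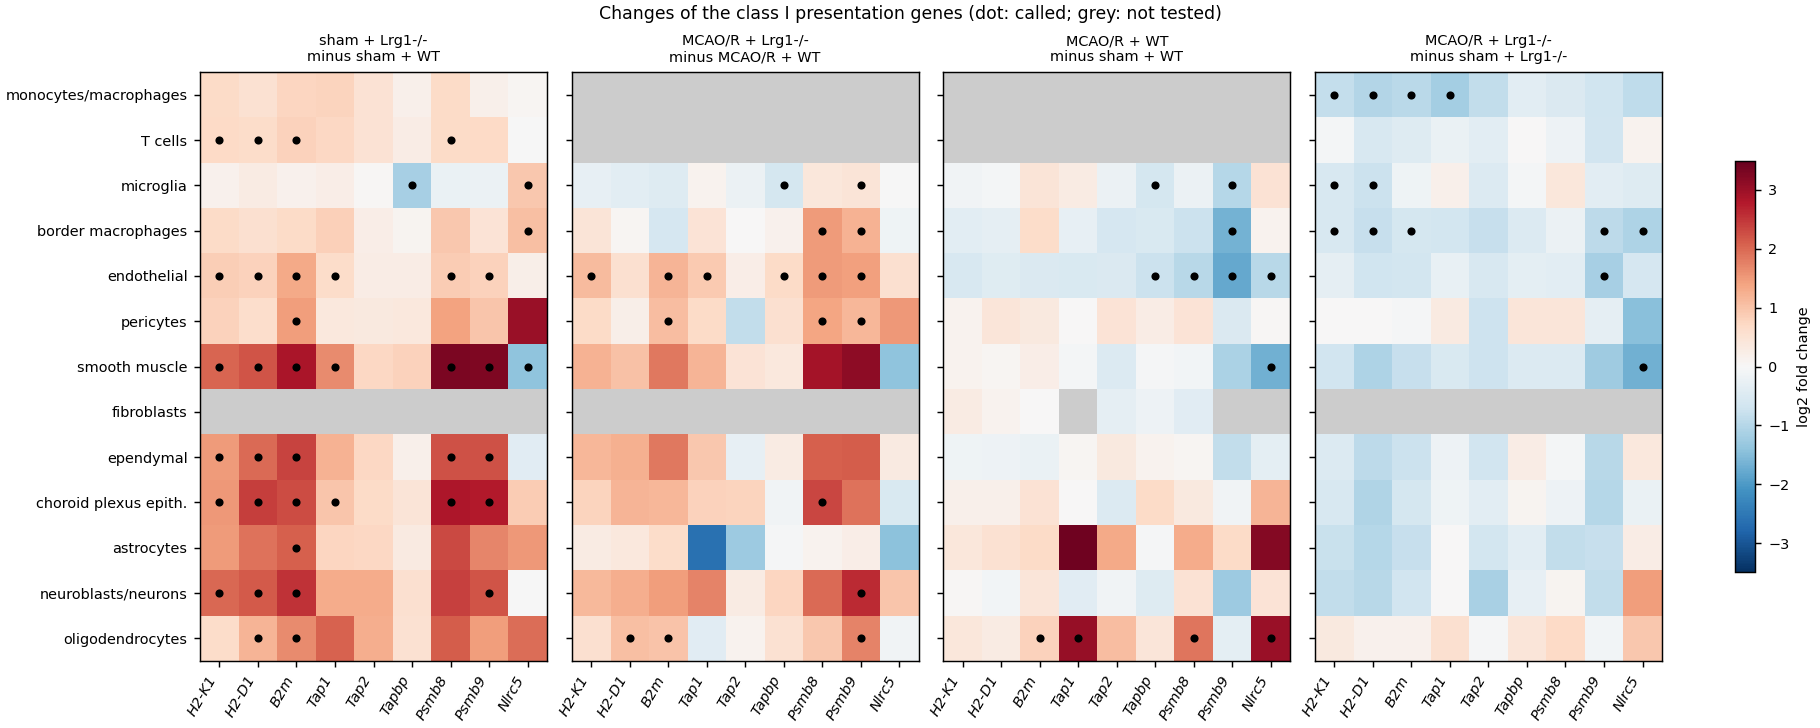
Log2 fold changes (colour) of the 9 members (columns) in 13 cell types (rows) for 4 comparisons, with a dot for each called pair and grey where no test was made. Red prevails in both comparisons of genotypes and blue in the knockout comparison of MCAO/R with sham, where 13 pairs were called lower and 0 higher.

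In WT mice, MCAO/R was compared with sham to ask how the genes differ after stroke. Of 96 pairs, 4 were called higher and 8 lower (4.29% and 4.02% of all pairs), with 49 positive log2 fold changes and a median of 0.02 against 0.00 over all genes. There were 7 calls without sham + WT replicate 2 and 18 without MCAO/R + WT replicate 2. Psmb9 fell in endothelial cells, from 65.9, 70.0 and 70.1 CPM to 20 and 19.5 CPM (-1.80 ± 0.29, adjusted p = 0.0013). It also fell in microglia, from 42.1, 38.2 and 39.0 CPM to 21.8 and 17.6 CPM (-1.01 ± 0.15, adjusted p = 0.000332), and in border-associated macrophages, from 73.0, 80.8 and 79.1 CPM to 25.4 and 23.9 CPM (-1.65 ± 0.27, adjusted p = 0.00114). The sham and MCAO/R libraries did not overlap in any of these 3 types, and all 3 calls held in every alternative run.

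Endothelial cells lowered 3 further members after stroke, against 8.47% of all genes. Tapbp went from 123, 118 and 118 CPM to 69.0 and 72.3 CPM (-0.76 ± 0.13, adjusted p = 0.00195), Nlrc5 from 15, 20.2 and 17.8 CPM to 10.3 and 7.62 CPM (-0.97 ± 0.24, adjusted p = 0.0147) and Psmb8 from 109, 113 and 120 CPM to 65.0 and 51.0 CPM (-0.98 ± 0.27, adjusted p = 0.0289). H2-K1, H2-D1 and B2m had negative log2 fold changes there and were not called. In microglia, where 9.72% of all genes were lower, Tapbp fell as well (-0.62 ± 0.14, adjusted p = 0.00778). Nlrc5 in vascular smooth muscle cells was lower, at 10.4 and 15.6 CPM (-1.68 ± 0.35, adjusted p = 0.0454), a call lost when any sham + WT or MCAO/R + WT library was left out. Microglia of the 2 operations came from different clusters, as 1 cluster held 72% of MCAO/R + WT microglia and 8.67% of sham + WT microglia.

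The 4 higher calls were all in oligodendrocytes, where 12.5% of all genes were called higher, and rested on 1 library. Tap1 measured 1.14, 0.719 and 0.76 CPM in the sham + WT libraries, 14.1 CPM in MCAO/R + WT replicate 1 and 0.973 CPM in replicate 2 (3.05 ± 0.79, adjusted p = 0.0106). Nlrc5 measured 0.947, 1.05 and 0.844 CPM, then 14.4 and 1.76 CPM (3.02 ± 0.62, adjusted p = 0.00231). Psmb8 measured 5.24, 4.21 and 4.73 CPM, then 33.1 and 2.89 CPM (1.88 ± 0.61, adjusted p = 0.0354), and B2m 60.9, 62.6 and 50 CPM, then 136 and 68.2 CPM (0.81 ± 0.26, adjusted p = 0.0309). Without replicate 1 none of the 4 was called, with log2 fold changes of 0.13 for Tap1, 0.85 for Nlrc5, 0.21 for B2m and -0.73 for Psmb8. Astrocytes of the same library had 155 CPM of Tap1 against 5.72 CPM in replicate 2 and 5.94-8.51 CPM in the sham + WT libraries, and the change was not called (3.40 ± 0.85, adjusted p = 0.0836). Irf9, a transcription factor of the interferon response, measured 30 CPM in oligodendrocytes of replicate 1 and 7.13 CPM in those of replicate 2. Irf1, another such factor, measured 21.9 and 16.6 CPM there, and 70.4 and 77.8 CPM in microglia of the same libraries.

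**Figure D4:**
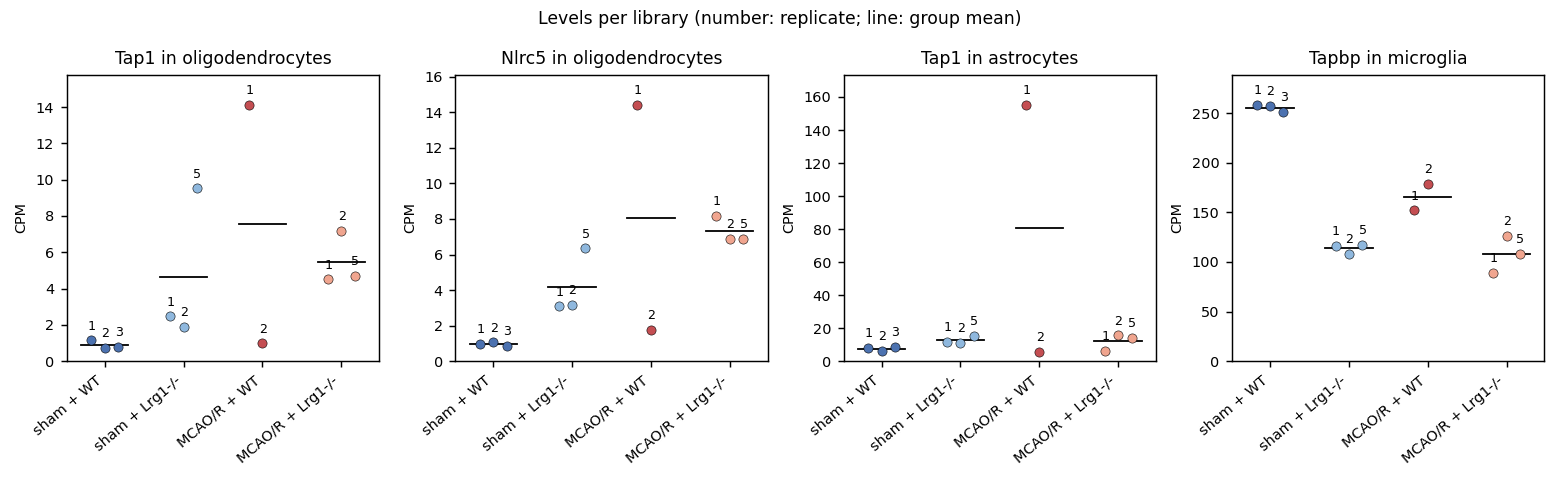
CPM of Tap1 and Nlrc5 in oligodendrocytes, Tap1 in astrocytes and Tapbp in microglia, with 1 point per library marked by its replicate number and a line for the group mean. Replicate 1 of the MCAO/R + WT group stands above the other libraries in the first 3 panels, and Tapbp in microglia is highest in the 3 sham + WT libraries.

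In Lrg1-/- mice, 13 of 116 pairs were called lower after MCAO/R than after sham and 0 higher (4.12% and 4.97% of all pairs), and 92 log2 fold changes were negative, with a median of -0.47 against 0.01 over all genes. In either direction 35 pairs had an unadjusted p below 0.05. This comparison shares the sham + Lrg1-/- libraries with the comparison of genotypes under sham. The heavy chains fell in microglia (14.8% of all genes lower), where H2-D1 went from 915, 1010 and 1070 CPM to 498, 710 and 559 CPM (-0.76 ± 0.14, adjusted p = 0.000967) and H2-K1 from 970, 955 and 975 CPM to 504, 782 and 664 CPM (-0.57 ± 0.15, adjusted p = 0.00771). Neither gene overlapped between the groups, and both calls held in every alternative. The microglia came from different clusters, as 1 cluster held 75.1% of those of sham + Lrg1-/- mice and 1.04% of those of MCAO/R + Lrg1-/- mice. In the 2 subclusters with at least 100 cells of both groups, H2-K1 was 1230 and 1070 CPM after sham and 777 and 618 CPM after MCAO/R, with no test. The same genes were lower in border-associated macrophages (4.92% of all genes), by -0.80 ± 0.16 for H2-D1 (adjusted p = 0.00534) and -0.57 ± 0.17 for H2-K1 (adjusted p = 0.0448), along with B2m, Psmb9 and Nlrc5.

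Monocytes and monocyte-derived macrophages had 4 members called lower (5.57% of all genes). H2-K1 measured 1930 and 2130 CPM in 2 sham + Lrg1-/- libraries and 1130, 1200 and 1060 CPM after MCAO/R (-0.84 ± 0.18, adjusted p = 0.0148). H2-D1 (-1.02 ± 0.23, adjusted p = 0.0188), B2m (-0.93 ± 0.27, adjusted p = 0.0472) and Tap1 (-1.18 ± 0.25, adjusted p = 0.0131) fell with it. All 4 calls were lost without sham + Lrg1-/- replicate 5 and without MCAO/R + Lrg1-/- replicate 5. The sums came from 55 and 24 cells after sham and from 36, 781 and 815 cells after MCAO/R. The summed microglial transcripts in these cells were 1880 and 2250 CPM after sham and 3290, 3280 and 4370 CPM after MCAO/R. The same transcripts summed to 8260, 8490 and 7620 CPM in border-associated macrophages of sham + WT mice, so in macrophages they need not be foreign RNA. Their part in the calls was not tested. In endothelial cells Psmb9 was lower (-1.15 ± 0.25, adjusted p = 0.00953), a call that held in every alternative, and in vascular smooth muscle cells Nlrc5 was lower (-1.69 ± 0.34, adjusted p = 0.048), a call lost in 12 of the alternatives. Over all members, the number of calls was 4 without MCAO/R + Lrg1-/- replicate 5, 6 without sham + Lrg1-/- replicate 5, 7 without MCAO/R + Lrg1-/- replicate 2, 8 without sham + Lrg1-/- replicate 2 and 24 without MCAO/R + Lrg1-/- replicate 1.

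Whether the response to stroke differed between genotypes was tested as an interaction. None of 90 pairs was called by edgeR with the settings used above (0.862% of all pairs were called higher and 0.679% lower). With no filter on low counts edgeR called 13, with DESeq2 size factors it called 1, and DESeq2 called 3. With the settings used above, 14 had an unadjusted p below 0.05 and the lowest adjusted p was 0.0556. That p belonged to Psmb9 in microglia, with a difference of 0.66 ± 0.20 (SE) on the log2 scale between a change of -0.36 in Lrg1-/- mice and -1.01 in WT mice. H2-D1 in microglia had a difference of -0.67 ± 0.21 (adjusted p = 0.059) and B2m in border-associated macrophages of -1.26 ± 0.27 (adjusted p = 0.0866). Of the 90 differences 66 were negative, with a median of -0.37 against 0.03 over all genes. The count was 6 without MCAO/R + WT replicate 2, 4 without MCAO/R + WT replicate 1 and 2 without MCAO/R + Lrg1-/- replicate 1.

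The wider pathway was read from lists chosen by function, with earlier results of these data known. Their counts stand beside the shares of all pairs called in the same comparison. How the calls of these lists fared under the alternatives used for the members is not given. Microglial transcripts in vascular smooth muscle and choroid plexus epithelial cells were higher in sham + Lrg1-/- than in sham + WT mice, as given above. Their part in the calls of these lists was not tested. The groups also filled different microglial subclusters, as given above, and the part of this in the microglial calls of these lists was not tested. Of the 10 other class I heavy chains, 21 of 105 pairs were called higher and 2 lower in the sham + Lrg1-/- group than in the sham + WT group (20% and 1.9%, against 6.5% and 6.01% of all pairs), led by H2-Q7 in vascular smooth muscle cells (4.28 ± 0.78, adjusted p = 0.0161). In Lrg1-/- mice after MCAO/R, 13 of 112 such pairs (11.6%, against 4.12% of all pairs) were lower than after sham and 0 higher, among them H2-Q6 in microglia (-1.82 ± 0.13, adjusted p = 8.35e-06). That gene was called in the interaction too (-1.07 ± 0.18, adjusted p = 0.00701). In WT mice 1 of 93 pairs was higher after MCAO/R and 6 were lower (1.08% and 6.45%, against 4.29% and 4.02%), and in the comparison of genotypes after MCAO/R 11 of 96 were higher and 4 lower (11.5% and 4.17%, against 8.19% and 7.31%).

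Among 14 genes of peptide supply and loading, 43 of 152 pairs were higher in MCAO/R + Lrg1-/- than in MCAO/R + WT mice and 6 were lower (28.3% and 3.95%, against 8.19% and 7.31% of all pairs). The chaperone Calr rose in microglia (1.94 ± 0.24, adjusted p = 0.00022) and pericytes (2.14 ± 0.26, adjusted p = 0.00084), and Psme1, a subunit of the proteasome activator PA28, in oligodendrocytes (1.74 ± 0.17, adjusted p = 1.44e-05). The third immunoproteasome subunit Psmb10 rose under sham in vascular smooth muscle cells (2.14 ± 0.44, adjusted p = 0.017) and choroid plexus epithelial cells (1.86 ± 0.33, adjusted p = 0.00396), among 19 higher and 6 lower of 168 pairs (11.3% and 3.57%, against 6.5% and 6.01%). In Lrg1-/- mice after MCAO/R 27 of 180 pairs rose and 5 fell (15% and 2.78%, against 4.97% and 4.12%), and the constitutive subunits Psmb6 (1.77 ± 0.26) and Psmb5 (1.31 ± 0.18) rose in microglia (adjusted p = 0.000236 and 0.000183). In WT mice 4 of 153 rose and 10 fell (2.61% and 6.54%, against 4.29% and 4.02%). The interaction called 6 pairs higher and 1 lower of 140 (4.29% and 0.714%, against 0.862% and 0.679%), led by Calr in microglia (1.94 ± 0.31, adjusted p = 0.00568).

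Of 19 regulators, Irf9 (1.75 ± 0.43, adjusted p = 0.00775) and Irf1 (1.41 ± 0.23, adjusted p = 0.000471) were called higher after MCAO/R in WT oligodendrocytes, among 6 higher and 11 lower of 194 pairs (3.09% and 5.67%, against 4.29% and 4.02% of all pairs). Irf1, a factor that binds interferon elements, fell after MCAO/R in endothelial cells of Lrg1-/- mice (-1.13 ± 0.12, adjusted p = 0.000258), among 3 higher and 17 lower of 226 pairs (1.33% and 7.52%, against 4.97% and 4.12%). Between genotypes, the regulators had 14 higher and 20 lower of 212 pairs under sham (6.6% and 9.43%, against 6.5% and 6.01%) and 11 higher and 14 lower of 194 after MCAO/R (5.67% and 7.22%, against 8.19% and 7.31%). After MCAO/R Irf8 was higher in pericytes (2.24 ± 0.37, adjusted p = 0.00206) and the kinase Jak1 lower in border-associated macrophages (-1.91 ± 0.19, adjusted p = 3.03e-05). Irf8 is a gene of microglia and other myeloid cells, and the microglial transcripts in these pericytes were 618-1100 CPM in WT and 2790-5700 CPM in Lrg1-/- libraries. Their part in the call of Irf8 was not tested. The interaction called 1 of 179 (0.559%, against 0.862% of all pairs higher), Irf8 in microglia (0.93 ± 0.23, adjusted p = 0.0275).

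A list of 8 genes held class I receptors of T, NK and myeloid cells. Of its pairs, 15 of 33 were called higher and 0 lower in the sham + Lrg1-/- group than in the sham + WT group (45.5% higher, against 6.5% of all pairs). After MCAO/R 10 of 25 were higher and 2 lower in Lrg1-/- mice (40% and 8%, against 8.19% and 7.31%). The higher calls included Cd8b1, a marker of CD8 T cells, in vascular smooth muscle cells (7.85 ± 1.64, adjusted p = 0.0216) and in endothelial cells (4.74 ± 1.03, adjusted p = 0.00587), and Klrc1, an NK cell receptor gene, in microglia after MCAO/R (6.19 ± 1.2, adjusted p = 0.00413). The named NK cells numbered 1 and 0 in the MCAO/R + WT libraries and 6, 34 and 21 in the MCAO/R + Lrg1-/- libraries. The named T cells numbered 48, 50 and 31 of 31121 analysed cells in the sham + WT group and 185, 34 and 68 of 17283 in the sham + Lrg1-/- group, and the transcripts of other cell types were higher in the latter as given above. The part of RNA from NK cells, T cells and other cell types in these calls was not tested. In WT mice after MCAO/R 2 of 24 rose and 1 fell (8.33% and 4.17%, against 4.29% and 4.02%), with Pirb, a class I receptor gene of myeloid cells, higher in border-associated macrophages (2.45 ± 0.25, adjusted p = 2.07e-05). In Lrg1-/- mice 1 of 33 rose and 2 fell (3.03% and 6.06%, against 4.97% and 4.12%), and the interaction called 1 of 24 higher (4.17%, against 0.862%).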

How the data were processed

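The measured values are UMI counts, not normalized, of each gene in each barcode of 11 single-cell libraries made with the 10x Genomics 3′ kit. The authors made the deposited counts with Cell Ranger 7.0.1, as the matrix headers state, and the study's methods name another version. This version counts intronic reads by default. The labels name mm10, STAR and Cell Ranger. In 4 of the Lrg1-/- libraries the number of barcodes is round, so cell calling may have differed between genotypes, which cannot be told apart from the knockout. Barcodes with over 500 genes, over 1000 UMIs and under 25% mitochondrial UMIs were kept (132437 of 155804), and the 6% highest doublet scores per library were removed (7946).

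From 2000 variable genes, without the members, the pathway genes or other H2- genes, 15 principal components and 3 neighbours per library gave Leiden clusters (resolution 1.0, then 0.5 in clusters of at least 1000 cells; igraph 0.11.9, leidenalg 0.10.2, Python 3.11.15). Clusters were named from marker lists by a rule set after the clusters were seen. It asked for at least 3 markers at 2 times the median over first-pass clusters, each detected in a share of at least 0.1 of cells. The mean log2 ratio of the list to that median had to exceed that of the next type by 0.5. Clusters with mostly doublets, with few UMIs and no own leading marker, or with more leading markers of another type stayed unnamed. The paper's BBKNN and Scrublet were replaced by own implementations. Counts were summed per library and type and, from 20 cells up, fitted with edgeR 4.0.16 (R 4.3.3, quasi-likelihood test, TMM, its filter on low counts) with all groups in 1 fit. A comparison was tested where each group had at least 2 libraries. SE is the log2 fold change over the square root of F, and SD is over libraries. Alternatives were DESeq2 1.42.0, its size factors, no filter, a replicate block, each library left out, at least 50 cells, mitochondrial UMIs under 10%, doublets kept, cells thinned to 1000 UMIs, cells kept by their own marker score, and haemoglobin and choroid plexus genes left out. Scripts were tested on simulated data.

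Each library is 1 mouse, going by the number of mice in the study, so p-values measure the spread between mice and their libraries. The members and lists were chosen with earlier results of these data known. The text names the 9 members in every type, up to 4 called genes of each other list per comparison, those with the largest change, and the 5 genes most like the members. Some genes of the lists are not reported here.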

Additional observations from a re-analysis of the deposited data

How the results depend on the processing

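Of the 82 called pairs of member and cell type, 20 were called under every setting run and 24 whichever library was left out. Of 1842 values of single pairs under alternatives, 1453 kept direction and call, 388 kept the direction and lost the call, and 1 changed sign, Psmb8 in oligodendrocytes in the comparison of MCAO/R + WT minus sham + WT, at -0.73 without MCAO/R + WT replicate 1 and 2.79 without replicate 2. Where leaving out a library left 1 sample in an arm, that sample was assumed to vary like the other groups.

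Counts of called pairs moved under several settings, and the cause was not tested. For MCAO/R + WT minus sham + WT (12 calls) there were 20 with no filter, 6 with the replicate block and 7 to 18 with a library left out. For MCAO/R + Lrg1-/- minus sham + Lrg1-/- (13) there were 23 with no filter, 5 with the block, 6 from 50 cells up, 5 without both replicates 5, and 4 to 24. For sham + Lrg1-/- minus sham + WT (39) there were 8 with the block, 22 with cells thinned to 1000 UMIs, 21 without both replicates 5, and 10 to 40. For MCAO/R + Lrg1-/- minus MCAO/R + WT (18) there were 43 with no filter, 30 with DESeq2, 32 without both replicates 5, and 11 to 32. For the difference between genotypes (0) there were 13 with no filter, 3 with DESeq2, 3 with cells kept by their own marker score, 1 each with DESeq2 size factors, doublets kept, thinned cells, a limit of 50 cells and without both replicates 5, and 0 to 6.

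Leaving out both replicates 5 and counting a low-UMI cluster as microglia were chosen after seeing the data. Replicate numbers gave no pairing: correlations of the deviations of same-numbered libraries ran from -0.59 to 0.251 over 5 cell types, and the labels do not tie equal numbers together.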

Other observations

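The microglia held a small subcluster whose leading genes were interferon-induced (Oasl1, Rsad2, Ifit2). It held 393 of 3959 microglia of MCAO/R + WT replicate 1, or 9.93%, and 16 of 4293 of replicate 2, or 0.373%. In the MCAO/R + Lrg1-/- libraries it held 3.19%, 2.17% and 1.17% of microglia, and in the sham + WT libraries 1 cell each. In the MCAO/R + WT group its cells had 80.6 CPM of Tap1, 54.9 CPM of Nlrc5 and 214 CPM of Psmb8, scaled to plain totals, against 26.1, 9.75 and 69.7 CPM in the main microglial subcluster of that group. In the MCAO/R + Lrg1-/- group its cells had 146 CPM of Tap1 and 72.2 CPM of Nlrc5. The cells were clustered on genes that move with the members, so these levels are a description with no test, and replicate 1 is the library that carried the calls in oligodendrocytes.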
